A study of Arabidopsis thaliana with 3 samples.

Results

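The NETWORKED (NET) genes of Arabidopsis thaliana encode a plant-specific superfamily of actin-binding proteins. The members measured under a name were taken as the genes whose symbol in the platform annotation is NET, a digit from 1 to 4 and a letter from A to D. This gave 8 genes of the 12127 named genes with a value on every array: NET1A (AT3G22790), NET1B (AT4G14760), NET1C (AT4G02710), NET1D (AT1G03080), NET2C (AT5G10500), NET2D (AT2G22560), NET3A (AT1G03470) and NET4B (AT2G30500). Each was read by 1 probe. RefSeq lists 13 genes of the family, and the other 5, NET2A (listed as EMB1674), NET2B, NET3B, NET3C and NET4A, were not analysed here. The members were chosen by symbol, with their log2 ratios on these 3 arrays already known, so the values below are a description and carry no test.

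NET proteins carry a conserved actin-binding domain at their N-terminal end and long coiled-coil regions behind it. Different members link actin filaments to different membranes of the plant cell. NET1A is known from the plasma membrane and plasmodesmata of root cells, NET2A from the plasma membrane of the pollen tube, NET3B and NET3C from the endoplasmic reticulum and its contacts with the plasma membrane, and NET4A and NET4B from the membrane of the vacuole. Auxin and actin are tied in the seedling through cell expansion and through the traffic of auxin carriers along filaments.

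The seedlings were wild type of the ecotype Col-0, whole, 4 days old and raised in the dark. One lot was submerged in 10 µM of indole-3-acetic acid (IAA), an auxin made by plants, with 0.1% ethanol as carrier, and the other in the carrier alone, for 20, 40 or 60 minutes. The seedlings of a plate were lifted and frozen together, so that a value is an average over whole seedlings and over all their tissues. Fewer cells of a type and less RNA per cell cannot be told apart in such samples. Each time had 1 two-channel array, with the ethanol RNA in channel 1 and the IAA RNA in channel 2, and no replicate, so single values carry no error.

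Values are log2 ratios of the channels of 1 array, and a ratio of 1 is 0 on that scale. The sources used here do not give the numerator or the dyes. A positive value is likely a transcript higher in IAA than in ethanol, on the basis of the channel order and of GH3.1 and HAT2, genes known to be induced by auxin, which stood at log2 ratios of 2.45 and 2.33 at 20 minutes, 2.85 and 2.30 at 40 minutes, and 3.54 and 2.56 at 60 minutes. Ratios carry no level of a transcript, so neither the abundance of the NET transcripts in the seedlings nor markers of their tissues could be read. Over all named genes the robust SD, taken from the median absolute deviation, was 0.165, 0.221 and 0.109 in order of time, so that a ratio of the same size stands further out at 60 minutes than at 40. For the 55 genes with several probes, the probes of 1 gene lay a median of 0.132, 0.146 and 0.123 apart on the 3 arrays, with a 90th percentile of 0.392, 0.454 and 0.485. That distance is the only error within an array that these values show.

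The NET genes stood between ratios of 0.72 and 1.44 during the hour, and the values furthest from 1 came mostly on the negative side and mostly at 40 minutes. On that array the robust SD of the 8 members was 0.326, beside 0.221 for all named genes. On the other arrays it was the smaller of the pair, 0.1325 beside 0.165 at 20 minutes and 0.0908 beside 0.109 at 60 minutes. None of the 8 members reached 1.5-fold, which is 0.585 on the log2 scale, at any time. Among all named genes 10.8% did so on at least 1 array. By side, the share of named genes at or beyond 1.5-fold was 1.24% positive and 1.28% negative at 20 minutes, 5.73% and 1.37% at 40 minutes, and 2.24% and 0.33% at 60 minutes, so that a count of 0 among 8 members is near the background. GH3.1 and HAT2 were each beyond 4-fold on the positive side on the same arrays.

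**Figure D1:**
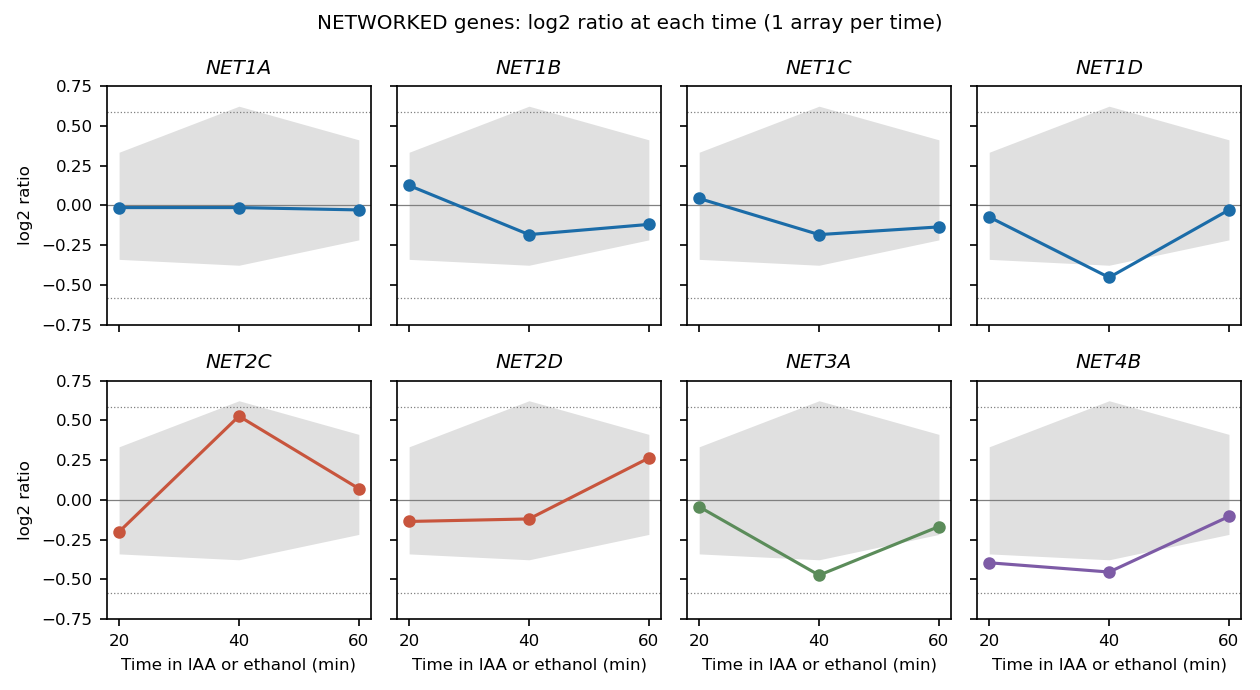
Log2 ratio of each of the 8 NET genes (vertical axis) at 20, 40 and 60 minutes (horizontal axis), 1 array per time, coloured by subfamily. Grey bands span the 5th to the 95th percentile of all named genes, and dotted lines mark 1.5-fold. NET1D, NET3A and NET4B leave the band on the negative side at 40 minutes, and NET4B also does so at 20 minutes.

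In the NET1 subfamily, 4 of 4 members known in RefSeq were measured. NET1A, the founding member of the superfamily, had log2 ratios of -0.01 at 20 minutes, -0.01 at 40 minutes and -0.03 at 60 minutes, or ratios of 0.99, 0.99 and 0.98. It moved by a single step of 0.01, the rounding of the deposited ratios, and was the flattest of the 8 genes.

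NET1B stood at a log2 ratio of 0.12 at 20 minutes, -0.18 at 40 minutes and -0.12 at 60 minutes. NET1C followed the same course, with 0.04, -0.18 and -0.14. Both were above a ratio of 1 at 20 minutes and below it afterwards, and both had a ratio of 0.88 at 40 minutes. Taking the distance over the 3 log2 ratios as a measure of likeness, they were the nearest of the 28 pairs of members, at 0.0832, and 120 of the named genes (0.99%) lay nearer to NET1B than NET1C did. Whether a probe also bound transcripts of a related gene was not tested, and no probe sequence was used here.

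NET1D stood at -0.07 at 20 minutes, -0.45 at 40 minutes and -0.03 at 60 minutes. Its ratio was thus 0.95, then 0.73, then 0.98. It was low on the 40-minute array alone, where 3.16% of named genes stood lower. The subfamily spanned 0.198 on the log2 scale at 20 minutes, 0.44 at 40 minutes and 0.107 at 60 minutes, so that its members were furthest apart at 40 minutes.

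The NET2 subfamily is known mostly from pollen, and NET2C and NET2D were its measured members. NET2C had a log2 ratio of -0.20 at 20 minutes, 0.53 at 40 minutes and 0.07 at 60 minutes. The ratio of 1.44 at 40 minutes was the value furthest from 1 that any NET gene reached, and it was the only member above 1 on that array. It still lay inside the 5th to 95th percentile of named genes, since 6.66% of them stood higher at 40 minutes. NET2C changed by 0.73 from 20 to 40 minutes and fell by 0.46 from 40 to 60 minutes.

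NET2D stood at -0.14 at 20 minutes, -0.12 at 40 minutes and 0.26 at 60 minutes. Its ratio of 1.20 was the highest of the family on the 60-minute array, where the spread of all genes was smallest. There 9.69% of named genes stood higher, and NET2D lay 2.29 robust SDs above the median. The 2 genes of this subfamily were thus the highest of the 8 at 60 minutes but among the 3 lowest at 20 minutes.

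NET3A, the measured member of the NET3 subfamily, stood at -0.04 at 20 minutes, -0.47 at 40 minutes and -0.17 at 60 minutes. It was the lowest NET gene at 40 minutes, with a ratio of 0.72, and again at 60 minutes, with 0.89. On those arrays 2.73% and 7.73% of named genes stood lower. Its course was close to that of NET1D, at a distance of 0.144 over the 3 log2 ratios, and 135 named genes (1.11%) lay nearer to NET1D than NET3A did.

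NET4B, of the subfamily of the vacuolar membrane, stood at -0.40 at 20 minutes, -0.45 at 40 minutes and -0.10 at 60 minutes. It was the only member below the 5th percentile of named genes at 20 minutes, with a ratio of 0.76 and 3.41% of them lower. At 40 minutes it had the same ratio as NET1D, 0.73. Its mean log2 ratio was the lowest of the 8, -0.32 ± 0.19 (SD over the 3 time points). That SD holds change over time as well as error, since the arrays are different times and not replicates. NET3A had a mean of -0.23 ± 0.22 and NET1D of -0.19 ± 0.23, while NET2C, at 0.13 ± 0.37, had the highest mean. Without the 40-minute array the means were -0.25 for NET4B, -0.11 for NET3A and -0.05 for NET1D, and that of NET2C turned to -0.07. Without the 20-minute array NET3A (-0.32) lay below NET4B (-0.28), and the mean of NET2C was 0.30.

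Over the 8 members the log2 ratios had medians of -0.06, -0.18 and -0.07 in order of time, beside 0, 0.03 and 0.01 for all named genes. A ratio below 1 was shown by 6 of 8 members at 20 minutes, 7 of 8 at 40 minutes and 6 of 8 at 60 minutes, where 48.7%, 43.8% and 42.5% of named genes were below 1. NET1A, NET1D, NET3A and NET4B were below 1 at all 3 times, 4 of 8 genes beside 8.83% of named genes, and 0 of 8 were above 1 at all 3 times, beside 12.9%. For NET1A this side rests on a ratio 0.01 or 0.02 short of 1, and with the median of neighbouring probe numbers subtracted the 4 genes became 3. NET1D at 60 minutes was no further off, at 0.98.

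At a lower limit of 0.32 on the log2 scale, a ratio of 5 to 4, NET4B was the 1 member past it at 20 minutes, on the negative side, where 6.14% of named genes were, and 0 were on the positive side, beside 5.55%. At 40 minutes NET1D, NET3A and NET4B were past it on the negative side, beside 7.78% of named genes, and NET2C on the positive side, beside 14.1%. At 60 minutes 0 of 8 were past it on either side, beside 7.73% positive and 2.42% negative. With the arrays scaled to the same median absolute deviation, NET2D was past it on the positive side at 60 minutes, at 0.40. Such scaling keeps the order of genes on an array, so 9.69% of named genes still stood higher than NET2D. The share of named genes past the limit after scaling was not computed. On at least 1 array, 4 of 8 members passed this lower limit, beside 34.6% of named genes. Of the 24 values of the family, 4 lay below the 5th percentile of named genes and 0 above the 95th.

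**Figure D2:**
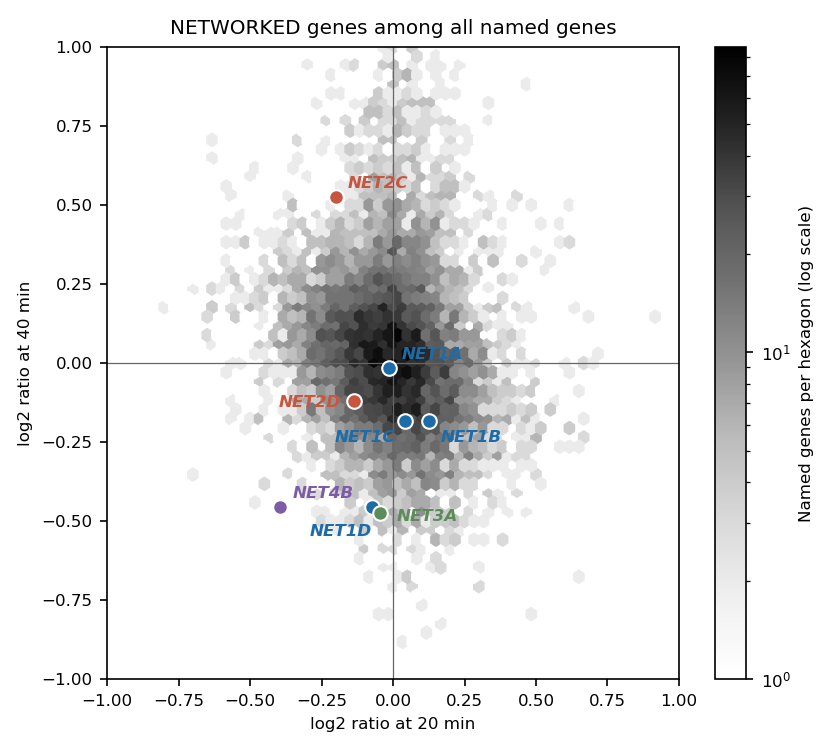
Log2 ratio at 20 minutes (horizontal axis) against that at 40 minutes (vertical axis) for the 8 NET genes (coloured points) over all named genes (grey hexagons, log scale of genes per hexagon); 195 named genes with a value beyond 1 log2 unit lie outside the window. NET1D, NET3A and NET4B lie between -0.47 and -0.45 at 40 minutes, where 2.73% to 3.16% of named genes stood lower, and NET2C is the only NET gene above 0 at 40 minutes.

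The order of the members changed between arrays. At 20 minutes they spanned 0.52 on the log2 scale from NET4B to NET1B, and each step in the order above NET2C was smaller than the median distance of 0.132 between probes of 1 gene. Only the gap of 0.195 from NET4B to NET2C was larger. At 40 minutes the span was 1.00, from NET3A to NET2C, in 3 groups: NET3A, NET1D and NET4B within 0.02 of one another, then NET1B, NET1C, NET2D and NET1A after a gap of 0.27, then NET2C after a gap of 0.54. Both gaps exceeded the median probe distance of 0.146, and only the second also exceeded its 90th percentile. At 60 minutes the span was 0.43, and of the steps in the order only the last, 0.193 from NET2C to NET2D, exceeded the probe distance of 0.123.

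Between times, 5 of 8 members stood lower at 40 than at 20 minutes, beside 44.3% of named genes, and 6 of 8 stood higher at 60 than at 40 minutes, beside 48.3%. The members whose log2 ratio changed most between 40 and 60 minutes were NET1D (0.42), NET2D (0.38), NET4B (0.35) and NET3A (0.31) upwards and NET2C downwards. The 40-minute array had the widest spread of the 3 over all genes, and its part in these changes was not tested.

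The named genes whose ratios were most like those of NET2C, the member with the largest single ratio, were AT5G46450 at a distance of 0.0214 over the 3 log2 ratios, AT4G02300 at 0.0381, AT1G74730 at 0.0438, AT2G03750 at 0.0516 and AT5G51800 at 0.0534. Each stood between 0.51 and 0.54 at 40 minutes, below 0 at 20 minutes and between 0.04 and 0.10 at 60 minutes. With 3 arrays such a likeness is a description of these values only.

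Among other genes of the actin cytoskeleton, 15 were measured under a name, of 100 RefSeq genes that matched fixed lists of names. The lists covered 11 groups of actins, actin-binding proteins, myosins, nucleators and known NET partners, and need not be complete. Profilins, actin depolymerizing factors, villins, fimbrins, formins and the NET partners, such as the VAP27 proteins and RABG3 GTPases, had 0 members measured under a name. Whether unnamed probes read any of them was not tested. At or beyond 1.5-fold there was 1 of 15 on the negative side at 20 minutes and 1 of 15 on the positive side at 40 minutes, with 0 at 60 minutes. The shares of all named genes were 1.28% on the negative side at 20 minutes, 5.73% on the positive side at 40 minutes, and 2.24% positive and 0.33% negative at 60 minutes, so that 1 of 15 at 40 minutes is near the background.

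The gene past 1.5-fold at 20 minutes was CRK (CROOKED), the ARPC5 subunit of the ARP2/3 complex that nucleates branched filaments. It stood at log2 ratios of -0.71 at 20 minutes, 0.24 at 40 minutes and 0.04 at 60 minutes. The gene past it at 40 minutes was the actin gene ACT12, known from pollen, with 0.08, 0.92 and 0.06 at the 3 times. Both were past 1.5-fold on a single array.

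In the groups with no gene past 1.5-fold, the one nearest to it was named. The class XI myosin gene XIJ, a motor that moves along filaments, stood at 0.03, -0.49 and 0.14. The filament-bundling LIM protein gene WLIM1 stood at -0.45, -0.17 and -0.14. The SCAR/WAVE gene PIR121, of the complex that activates ARP2/3, stood at 0.01, 0.14 and -0.06. The medians of the 15 genes were -0.14, 0 and 0 on the log2 scale in order of time, with 11, 7 and 7 of 15 below a ratio of 1, beside 48.7%, 43.8% and 42.5% of named genes. The counts of 7 are near that background. In the NET family the lowest of the 3 medians was that at 40 minutes. In these 15 genes it was that at 20 minutes, and the difference was not tested. At the lower limit used for the NET genes, 3 of 15 were past it on the negative side at 40 minutes. At 20 minutes 2 of 15 were, beside 7.78% and 6.14% of named genes at 40 and 20 minutes. On the positive side 1 of 15 was past it at 40 minutes, beside 14.1% of named genes, and 0 at 20 minutes, beside 5.55%. At 60 minutes 0 of 15 were past it on either side, beside 7.73% positive and 2.42% negative. These counts of 0 are near the background. Values past that limit on the negative side at 40 minutes occurred in both sets, as in 7.78% of all named genes.

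**Figure D3:**
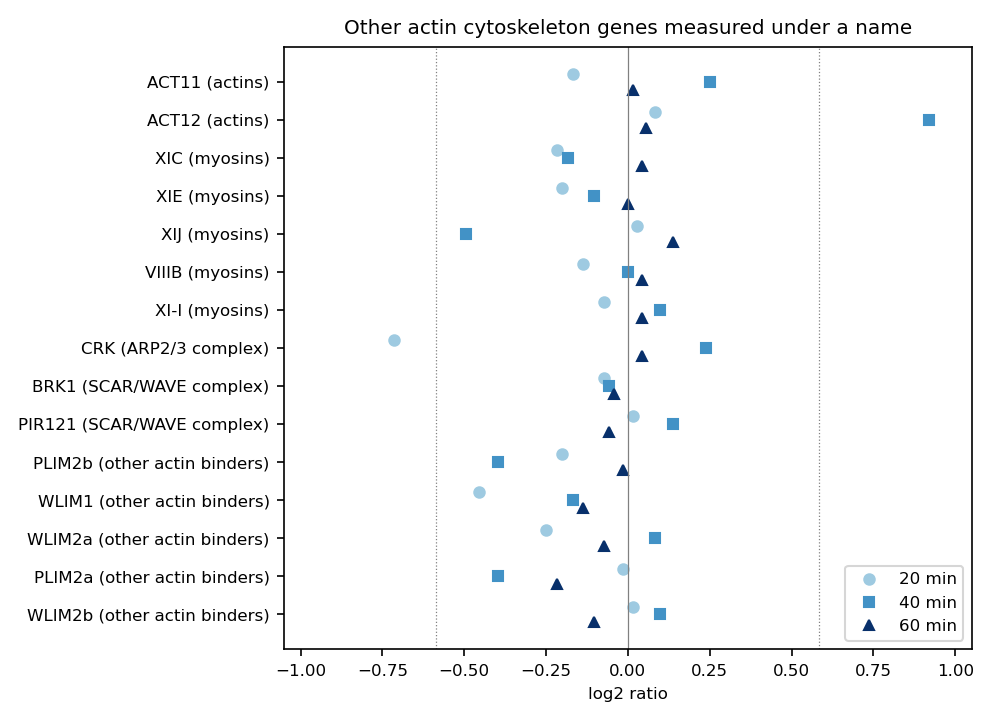
Log2 ratio (horizontal axis) at 20, 40 and 60 minutes of the 15 other actin cytoskeleton genes measured under a name, 1 array per time, with dotted lines at 1.5-fold. CRK at 20 minutes and ACT12 at 40 minutes lie beyond the lines, and at 60 minutes the 15 genes lie between -0.22 and 0.14.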

How the data were processed

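The deposited table held log2 ratios for 21939 probes on 3 arrays, made by the authors from the channels of each array. The log2 base follows from the values themselves, since 100% of the back-transformed ratios are multiples of 0.01 within 1e-05. The sources used here do not give the array model, background correction or normalization. No intensities of spots were used, and precision is limited by the number of arrays.

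Names came from the platform annotation and were updated by gene identifier to RefSeq (TAIR10.1). A single gene was listed for 12195 probes, of which 12142 matched RefSeq. The remaining 9744 probes, 1 with several genes and 9743 not listed, stayed unnamed. Coordinates are left out, since the table names no build. Where a gene had several probes, their mean was used. Python 3.11.15 with pandas 2.3.3 was used, and the steps were checked on simulated data.

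The members, lists and naming rule were chosen with earlier results of these data known. All members were named, with the actin cytoskeleton genes at or beyond 1.5-fold (or nearest to it in their group) and the 5 genes nearest to the member with the largest ratio. Actin lists were matched on symbol or synonym, and genes of another kind that share a synonym were removed by hand. No test was made, with 1 array per time. Planned comparisons of protein and promoter sequences were not run, since no sequences were used here. Alternatives were another scaling, centring, neighbouring probes, leaving out 1 array, members by synonym, and limits of 0.32 and 1 on the log2 scale.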

Additional observations from a re-analysis of the deposited data

Results flagged for a closer look

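In 4 of 8 NET genes the log2 ratio lay on opposite sides of 0 at a pair of times. There was 1 array per time, so none of these differences was tested. Among all named genes 8.83% were below 0 at all 3 times and 12.9% were above it. The remaining named genes, the majority, changed side or stood at exactly 0 on some array, so such a change is not particular to the family. NET2C stood 0.73 higher at 40 than at 20 minutes on the log2 scale. It was lower at 40 than at 20 minutes in NET1B, by a difference of -0.31, and in NET1C, by a difference of -0.23. NET2D stood 0.40 higher at 60 than at 20 minutes.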

How the results depend on the processing

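The family medians, the counts at or beyond 1.5-fold and the count of 4 genes below a ratio of 1 at all 3 times kept their side when arrays were scaled to the same median absolute deviation or centred on the named genes. The median at 40 minutes then lay at -0.15 and -0.21, and at -0.22 with neighbours in probe number subtracted; at 20 minutes it lay between -0.06 and -0.02 and at 60 minutes between -0.10 and -0.07 over these settings. Of the 24 values of single genes, 1 changed side, that of NET1A at 20 minutes with neighbours subtracted, and 0 under scaling or centring. That turn lowers the 4 genes below 1 at all 3 times to 3, a setting chosen for this count after seeing the data. Values that moved by over 1.5 times or changed side numbered 8 of 24 under scaling, 1 under centring and 9 with neighbours subtracted. The 8 under scaling were the 8 members at 60 minutes. Scaling multiplied all values of that array by 1 common factor just over 1.5, so the 8 passed that mark together. The 9 with neighbours subtracted included NET1B at 20 minutes (0.12 to 0.03) and NET2C at 60 minutes (0.07 to 0.03). A limit of 5 to 4 (0.32 on the log2 scale) in place of 1.5-fold changed the count from 0 to 1 on the negative side at 20 minutes, to 3 on the negative side at 40 minutes and to 1 on the positive side at 40 minutes, and 2-fold left 0 throughout. Past the lower limit, scaling added NET2D at 60 minutes (0.40), where 9.69% of named genes stood higher, and centring and neighbours added 0. The means over time moved by over 1.5 times or changed sign in 4 members without the 20-minute array (NET1B, NET1C, NET2C and NET2D), in 6 without the 40-minute array (those 4, NET1D and NET3A) and in 2 without the 60-minute array (NET1B and NET2D); signs changed in NET1B and NET2C without 40 minutes and in NET2D without 60 minutes. Members taken by RefSeq synonym gave the same medians. Each member has 1 probe, so taking probes singly changes nothing. No paired analysis was possible because each time has 1 array. Signal over background was not analysed here.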
